A study of Callithrix jacchus with 3 samples.

Results

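Small RNA reads of 31, 32 or 33 nt were compared between total small RNA and MARWI-bound RNA of the marmoset testis. These lengths sit at the upper edge of the piRNA size range, where longer piRNA forms and tRNA fragments overlap. Members were chosen by length alone. They were 360221 of the 2668455 distinct sequences in the total small RNA file and 1100822 of the 6912324 in the MARWI-IP file, and 160246 sequences occurred in both. In reads, they were 2377519 (18.6% of the reads of 24 to 33 nt) in total and 13104511 (11.9%) in MARWI-IP.

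Both samples came from testis of wild-type common marmosets (Callithrix jacchus). Total small RNA, purified by size on a gel, was taken at 41 months of age, with no number of animals in the labels. MARWI-IP is the RNA that came down with MARWI, a PIWI protein of the marmoset, from testis lysate. The labels give it ages of 41 and 51 months and 2 replicates, which the file holds as 1 list of counts. The spread between replicates is thus unknown, no test between the samples was possible, and intervals (exact, Clopper-Pearson, 95%) cover counting error only. No control immunoprecipitation was analysed here, so RNA bound to MARWI and background cannot be told apart, and the samples also differ in gel purification and ages.

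PIWI proteins hold piRNAs, whose 5′ end lies in a pocket that favours uridine (U) and whose 3′ end is trimmed until the protein covers it, then methylated. The length of a piRNA thus reflects its protein partner and how far trimming went. tRNA 5′ fragments of similar length arise by cleavage near the anticodon and are abundant in mature sperm. A 31 to 33 nt library can hold both kinds of RNA.

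The leading sequences of the 2 files were mostly different. They are printed 5′ to 3′ as the files give them, with T for U, and capitals mark the bases past the commonest 29 or 30 nt form of the same 5′ end in MARWI-IP. Of the 8 most abundant in total small RNA, 6 are shown first and U-first a below is another. The 6 were 3 lengths of the tRNA-Gly-GCC fragment, fragments of tRNA-Val-CAC and tRNA-Lys-CTT, and a sequence that matched no listed RNA. Some tRNA-Gly-CCC genes share the 5′ part of tRNA-Gly-GCC. All tRNA 5′ fragments here are named by bases of the 5′ part, so tRNAs that share these but differ in anticodon were not told apart.
tRNA-Gly-GCC, 31 nt: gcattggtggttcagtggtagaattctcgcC
tRNA-Gly-GCC, 32 nt: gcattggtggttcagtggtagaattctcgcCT
tRNA-Gly-GCC, 33 nt: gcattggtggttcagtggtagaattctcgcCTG
tRNA-Val-CAC, 32 nt: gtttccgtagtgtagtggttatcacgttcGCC
tRNA-Lys-CTT, 32 nt: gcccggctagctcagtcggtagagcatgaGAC
unassigned, first base A, 31 nt: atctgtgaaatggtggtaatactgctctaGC

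None of the 8 leading MARWI-IP sequences matched a listed RNA. They are shown as the most read sequences of the immunoprecipitate, 5 beginning with U, 2 with C and 1 with A.
U-first a, 31 nt: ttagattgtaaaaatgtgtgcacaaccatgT
U-first b, 31 nt: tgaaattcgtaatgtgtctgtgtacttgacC
U-first c, 31 nt: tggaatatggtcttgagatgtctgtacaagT
U-first d, 31 nt: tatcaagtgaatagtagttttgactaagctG
U-first e, 31 nt: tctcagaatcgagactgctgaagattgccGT
C-first, 31 nt: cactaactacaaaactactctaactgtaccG
C-first, 32 nt: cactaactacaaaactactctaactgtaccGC
A-first, 31 nt: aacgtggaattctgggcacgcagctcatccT

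Within the window, MARWI-IP reads were shorter than total reads. In total small RNA 66.7% of the 31 to 33 nt reads were 31 nt, 20.5% were 32 nt and 12.8% were 33 nt. In MARWI-IP the shares were 82.7%, 14.8% and 2.497%. A 33-nt sequence was read 9.41 times on average in total and 3.58 times in MARWI-IP. MARWI-IP was the deeper file at every length, though at 33 nt by little (327258 reads against 304558). The printed 33-nt tRNA-Gly-GCC form alone held 160846 of these total reads and 5449 in MARWI-IP. Without reads that carry the tRNA A-box pattern described below, 33 nt held 105477 reads of 32301 sequences in total. In MARWI-IP it then held 297750 reads of 91344 sequences. Just below the window, 30 nt held 3412694 total and 35409375 MARWI-IP reads. Just above it, 34 nt held 79353 total reads, and the MARWI-IP file ends at 33 nt.

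The first base separated the samples. U was first in 63.4% of total reads (63.4% to 63.5%) and 85.2% of MARWI-IP reads, a difference of 21.7 percentage points. G was first in 25.3% of the reads in total and 2.68% in MARWI-IP. C went the other way, at 6.04% and 7.48%, while A was at 5.18% and 4.68%. At 29 and 30 nt the gap was small, with U first in 87.8% of the reads in total and 90.9% in MARWI-IP.

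The gap widened with each added base. U was first in 73.7% of the reads in total and 86.7% in MARWI-IP at 31 nt, in 55.6% and 78.8% at 32 nt, and in 22.4% and 71.6% at 33 nt. At 33 nt, G led the total library at 66.5% of reads. Counted once per distinct sequence, the order turned, with U first in 71.6% of total and 68.9% of MARWI-IP sequences of 31 to 33 nt. The order thus depended on how often sequences were read. The distinct count was not matched for depth, and 768179 MARWI-IP sequences were read once, against 256426 in total.

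**Figure D1:**
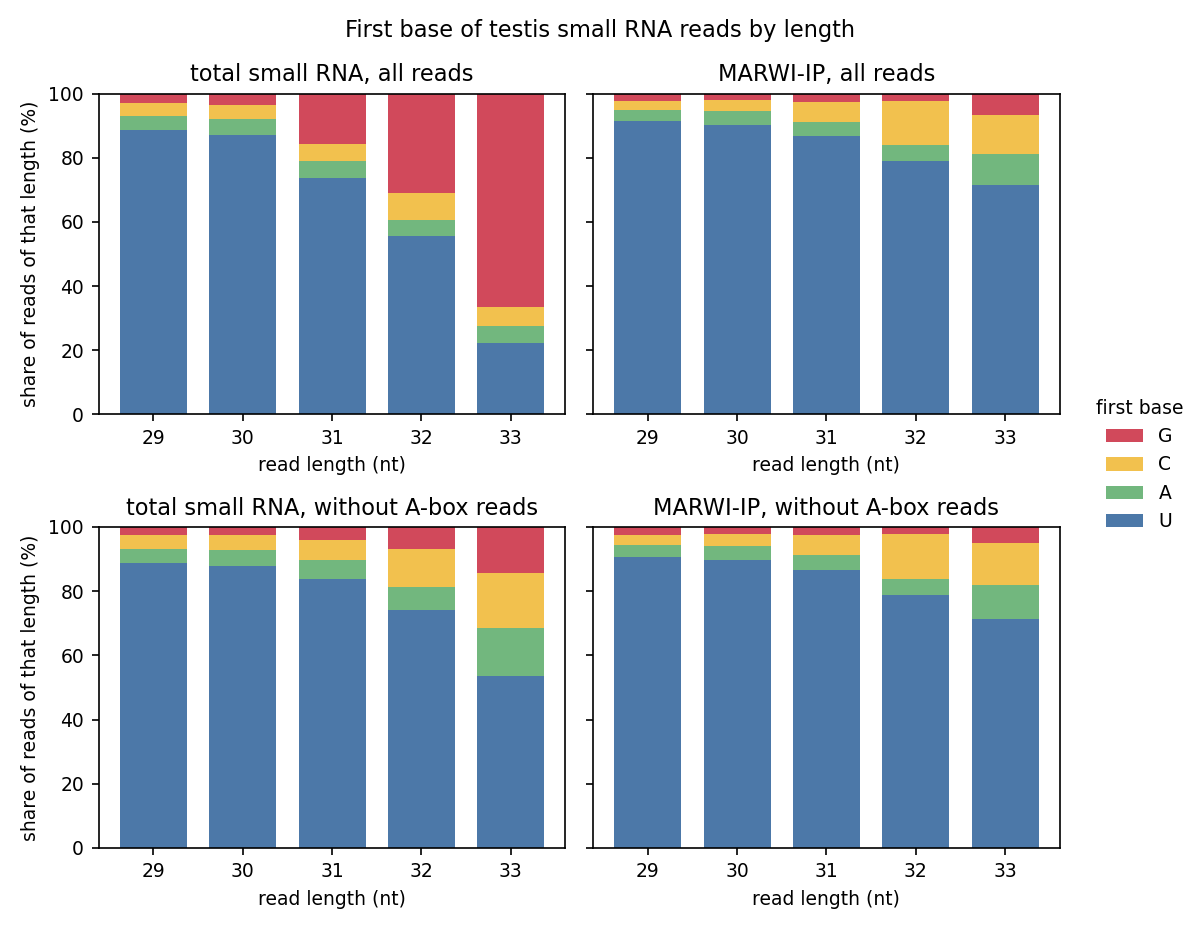
Stacked bars give the share of reads (%) beginning with each base at 29 to 33 nt (x axis), for total small RNA (left) and MARWI-IP (right), with all reads (top) and without reads that carry the tRNA A-box pattern (bottom). G-first reads reach 66.5% of total reads at 33 nt with all reads and 14.4% without A-box reads.

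Reads shaped like tRNA 5′ ends made up most of the G-first reads in total small RNA. The A box is a conserved stretch at the start of tRNA genes, and it was sought by position: T at 8, G at 10, A at 14, A or G at 15, and GG at 17 and 18 or at 18 and 19. Reads with it were 23.2% of total reads of 31 to 33 nt (23.1% to 23.3%) and 1.12% of MARWI-IP reads (1.11% to 1.12%), a log2 ratio of -4.38. The same pattern shifted by 1 to 6 bases in either direction matched at most 0.0900% of the reads in total and 0.0755% in MARWI-IP.

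The A-box share rose with length in total, from 13.1% at 31 nt to 29.6% at 32 nt and 65.4% at 33 nt. In MARWI-IP it was 0.757%, 1.79% and 9.02%. At 29 and 30 nt the order was the reverse, with 2.81% of the reads in total and 7.74% in MARWI-IP. Single tRNAs went both ways there. tRNA-Glu-TTC, followed below, was 1.80% of the 29-nt reads in total and 8.59% in MARWI-IP. tRNA-Gly-GCC stayed lower in MARWI-IP, 56.5-fold at 29 nt and 59.0-fold at 30 nt. The A-box reads of 31 to 33 nt also differed in their first base: 91.9% began with G in total, against 17.4% in MARWI-IP, where 82.4% began with U. Few sequences carried these reads, 336 in total and 731 in MARWI-IP, and tRNA-Gly-GCC alone held 81.0% of the A-box reads in total and 14.5% in MARWI-IP.

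Without A-box reads, the first-base gap was smaller and kept its direction at every length. U was then first in 80.2% of the reads in total and 85.2% in MARWI-IP of 31 to 33 nt, a difference of 5.02 points. At 33 nt it was 53.5% and 71.4%, with G at 14.4% and 4.84%. Reads of other RNAs that begin with G, such as Y-RNA-4, remain in these shares.

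Single RNAs were then followed by matching 7 bases at position 1 and 7 at position 20 to listed tRNAs, Y RNAs, rRNAs and snRNAs, and tRNA 3′ parts by their T-arm motif and CCA end. Of 30 listed RNAs, 21 had 100 or more reads of 31 to 33 nt in either file. The share in MARWI-IP was lower for 18 of them (19 without an anchor for tRNA-Asp-GTC added after seeing the data), more than 10-fold lower for 17 and more than 100-fold lower for 8. Of the 15 with a first G, 14 were lower. For scale, among 2169 single sequences of the window with 100 or more total reads, the median ratio was 0.789. Of these, 23.9% were 8-fold or more lower. With a first G, 84.1% of 82 were 4-fold or more lower. The list was written with earlier results known.

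tRNA-Gly-GCC was read 446648 times in total (18.8% of the window) and 21221 times in MARWI-IP (0.162%), and was 116-fold lower in MARWI-IP. tRNA-Val-CAC had 27016 and 2868 reads and was 51.9-fold lower. These folds pool the lengths, and 33 nt was a smaller part of the MARWI-IP window. Among reads of 31, 32 and 33 nt taken singly, tRNA-Gly-GCC was lower by 112, 93.3 and 30.9 fold. For tRNA-Val-CAC the values were 9.23, 121 and 4.69 fold. tRNA-Lys-CTT had 17711 and 92 reads and was 1061-fold lower. Its 32-nt form printed above had 9709 total and 7 MARWI-IP reads, among the lowest ratios of all sequences with 1000 or more total reads. A 33-nt form, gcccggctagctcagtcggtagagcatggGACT, had 1831 total reads and 0 in MARWI-IP, which puts it at least 3364-fold lower, a bound that sets its MARWI-IP count at 3 reads. tRNA-Lys-CTT thus gave 2 of the 3 lowest ratios.

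tRNA-Cys-GCA was 99.8-fold lower, with 7640 total and 422 MARWI-IP reads, and tRNA-Lys-TTT 165-fold lower, with 5201 and 174. tRNA-His-GTG (724 and 86 reads) was 46.4-fold lower and tRNA-Gly-CCC (440 and 43) 56.4-fold. By length, tRNA-His-GTG was lower by 156, 222 and 4.84 fold at 31, 32 and 33 nt. tRNA-Gly-TCC (242 and 4) was 333-fold lower, tRNA-Ala (113 and 8) 77.9-fold and tRNA-Pro (173 and 70) 13.6-fold. The initiator tRNA-iMet-CAT had 410 total reads and 1 in MARWI-IP, a ratio of 0.000443 (1.12e-05 to 0.00248). All of these had intervals below a ratio of 1. Some sizes depended on the second anchor: by the first anchor alone the log2 ratio of tRNA-iMet-CAT moved from -11.14 to -5.32, tRNA-Gly-TCC from -8.38 to -6.73, tRNA-Ala from -6.28 to -4.61 and tRNA-Lys-TTT from -7.36 to -6.68.

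Of the U-first tRNA fragments, tRNA-Asp-GTC has no settled direction, since its ratio turned with the anchor used and with length. On the anchor first listed it had 5877 reads in total and 15632 in MARWI-IP, which put the ratio at 0.483 (0.468 to 0.497). With a second anchor, added after seeing its commonest sequence, it had 9645 and 61992 reads, 0.406% and 0.473% of the window, and a ratio of 1.17 (1.14 to 1.19). Over all 24 to 33 nt reads the log2 ratio with both anchors was -0.42. By length, with both anchors, the ratio was 1.41 at 31 nt, 0.913 at 32 nt and 3.74 at 33 nt (43 and 173 reads). tRNA-Glu-TTC had 4707 and 5747 reads, a ratio of 0.222 (0.213 to 0.230). Its ratio turned with length: 4.77 at 29 nt and 5.90 at 30 nt, then 0.306 at 31 nt, 0.0590 at 32 nt and 1.01 (0.949 to 1.07) at 33 nt.

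tRNA-Gln-CTG, a G-first fragment, had 48 reads in total and 290 in MARWI-IP, and its ratio of 1.10 (0.805 to 1.52) pooled opposite values. At 31 nt it had 29 and 4 reads, a ratio of 0.0202 (0.00516 to 0.0575), and at 33 nt 19 and 284, a ratio of 13.9 (8.74 to 23.4). By its first anchor alone the pooled log2 ratio was -2.40. tRNA 3′ parts ending in CCA were scarce, with 21 total and 245 MARWI-IP reads and a ratio of 2.12 (1.35 to 3.48). Among other RNAs, the 5′ end of 28S rRNA fell furthest below its total share, with 15629 total and 21 MARWI-IP reads, a 4102-fold difference. Its 33-nt form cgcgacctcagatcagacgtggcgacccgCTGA had 5246 and 5. Y RNAs, which bind the Ro protein, were lower by 147-fold for Y-RNA-1, 36.5-fold for Y-RNA-4, 23.1-fold for Y-RNA-3 and 23.0-fold for Y-RNA-5. At 31 nt alone Y-RNA-1 was 503-fold and Y-RNA-4 40.9-fold lower, and at 33 nt alone 10.5-fold and 5.41-fold. 5S rRNA was 158-fold lower, with 143 and 5 reads, a log2 ratio of -7.30 that was -6.17 by its first anchor alone. First base and RNA type moved together here, and their parts in the ratios cannot be told apart.

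**Figure D2:**
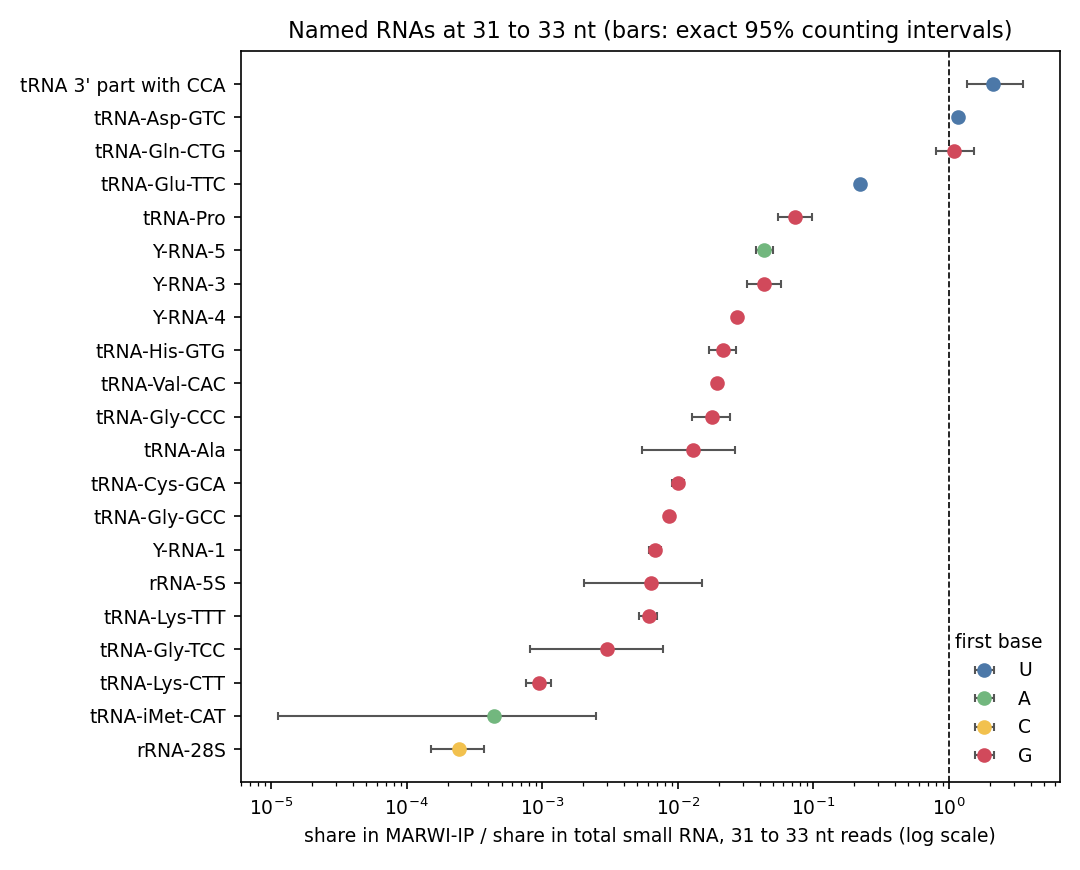
Points give each RNA's share of the 31 to 33 nt reads of MARWI-IP divided by its share in total (log x axis) for the 21 RNAs with 100 or more reads, coloured by first base, with exact 95% counting intervals. Only the tRNA 3′ parts, tRNA-Asp-GTC and tRNA-Gln-CTG lie above the dashed line at 1. The interval of tRNA-Gln-CTG crosses it, and tRNA-Asp-GTC is at 0.483 without the added anchor.

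The leading MARWI-IP sequences were enriched by a few fold at most. U-first a had 21682 total reads (0.912% of the window) and 266201 MARWI-IP reads (2.03%), a ratio of 2.23. U-first b had 8834 and 132066 reads, a ratio of 2.71, and U-first c 7739 and 115020, a ratio of 2.70. U-first d had a ratio of 3.14, with 4922 and 85087 reads, and U-first e a ratio of 4.87, with 3172 and 85068. The A-first sequence had 3026 and 62178 reads and a ratio of 3.73. All 8 had a higher share in MARWI-IP, as a ranking by MARWI-IP reads favours. Their commonest 29 or 30 nt forms lay nearer to equal shares, taken among reads of that form's length. Those ratios were 1.33, 1.77, 1.29, 1.49 and 2.06 for U-first a to e and 2.24 for the C-first end. The 30-nt form of the A-first sequence had 41946 total and 396446 MARWI-IP reads and a ratio of 0.911, lower in MARWI-IP.

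The C-first RNA had the highest share of any 5′ end in the MARWI-IP window, at 2.29% of its reads and 0.558% of total reads. Its 31-nt form had 5534 total and 158079 MARWI-IP reads (ratio 5.18, 5.05 to 5.32) and its 32-nt form 7252 and 132015 (ratio 3.303). Much of the C-first gap at 32 nt lay in it: the C-first share was 8.33% of the reads in total and 13.9% in MARWI-IP with it, and 6.94% and 7.58% without its 5′ end. Among sequences with 1000 or more total reads the highest ratios were 5.49 for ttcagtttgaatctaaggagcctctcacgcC (1464 and 44312 reads), 5.40 for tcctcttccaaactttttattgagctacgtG (1598 and 47601) and the 5.18 of the C-first 31-nt form.

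The unassigned A-first sequence of 31 nt in the total list went the other way. It had 11816 total and 359 MARWI-IP reads, a share 181-fold lower. Its 29-nt form had 1262 total and 2301 MARWI-IP reads, 0.0358% and 0.00620% of the 29-nt reads, a ratio of 0.173 (0.161 to 0.185). It matched no listed RNA.

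Over sequences with 100 or more total reads, the background over 24 to 33 nt was 29.6% of sequences 4-fold or more lower in MARWI-IP and 2.80% 4-fold or more higher. On the same scale, 798 of the 2169 such sequences of 31 to 33 nt (36.8%) were 4-fold lower and 25 (1.15%) 4-fold higher. On that scale the window held somewhat more sequences 4-fold lower and fewer 4-fold higher than the whole range. The window itself was 18.6% of the 24 to 33 nt reads in total and 11.9% in MARWI-IP, which lowers all its ratios on that scale. With shares taken within 31 to 33 nt, 672 (30.98%) were 4-fold lower and 119 (5.49%) 4-fold higher. A choice by total reads favours lower ratios: among 2562 sequences chosen on the mean of both shares, an alternative added after seeing the data, 14.2% were 4-fold lower and 19.3% higher.

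The share of sequences that were 4-fold lower was higher at the longer lengths and at first bases other than U. In number, most of them were of 31 nt (449 of 672) and most began with U (519). Those 4-fold lower within the window were 26.2% of 1712 sequences at 31 nt, 44.6% of 368 at 32 nt and 66.3% of 89 at 33 nt. These ratios use shares of the whole window, of which 33 nt was 12.8% in total and 2.497% in MARWI-IP. The rise with length thus includes the length mix, and counts on shares within each length were not made. By first base they were 69 of 82 with G, 45 of 84 with A, 39 of 90 with C and 519 of 1913 (27.1%) with U. Of 51 A-box sequences, 40 were 4-fold lower and 0 were 4-fold higher. None of the 89 sequences of 33 nt was 4-fold higher, by the same shares of the whole window.

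Most 31 to 33 nt reads shared their first 20 nt with at least 1 read of 29 or 30 nt. The first 20 nt were those of a 29 or 30 nt sequence of the same file for 88.9% of the reads in total and 94.2% in MARWI-IP. That difference of 5.20 points depended on depth. With MARWI-IP thinned, as an exact expectation, to the depth of the total library, its share was 88.9%, a difference of -0.0923 points from total. Requiring the whole 29 or 30 nt sequence as the start changed little, with 88.5% and 94.0% as deposited. By distinct sequences the shares were 44.4% and 45.9%, since most sequences without a shorter form were read about once: 1.31 reads each in total and 1.29 in MARWI-IP.

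A-box reads raised the share in total. They had a 29 or 30 nt form in 99.97% of the reads in total and 99.7% in MARWI-IP. Without them the share was 85.6% in total and 94.1% in MARWI-IP, or 88.7% in MARWI-IP at matched depth. At 33 nt it was 92.0% of the reads in total and 80.3% in MARWI-IP with all reads, and 76.9% and 78.4% without A-box reads. Seen from the shorter side, 70.2% of the reads in total and 87.4% in MARWI-IP of 29 or 30 nt had a form of 31 to 33 nt, without depth matching.

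Most 31 to 33 nt reads lay at 5′ ends where these lengths were at least as abundant as 29 and 30 nt, with shorter reads not counted. In total small RNA this held for 64.6% of the 31 to 33 nt reads. Another 24.4% lay at ends where 29 and 30 nt reads were more abundant, and 11.1% had no 29 or 30 nt form. In MARWI-IP the shares were 53.4%, 40.7% and 5.85%. Without A-box reads they were 55.8%, 29.8% and 14.4% in total and 53.4%, 40.7% and 5.91% in MARWI-IP.

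First bases followed this division in both files. Where 29 and 30 nt reads were the more abundant, U was first in 90.2% of the reads in total and 90.02% in MARWI-IP of 31 to 33 nt. Where the longer reads dominated, U was first in 52.8% of total reads, or 78.5% without A-box reads, and in 83.6% of MARWI-IP reads. C was first in 10.1% of these MARWI-IP reads. Reads with no shorter form began with U in 66.9% of the reads in total and 65.0% in MARWI-IP, and their A-first shares, 12.7% and 15.01%, were the highest of the 3 classes.

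**Figure D3:**
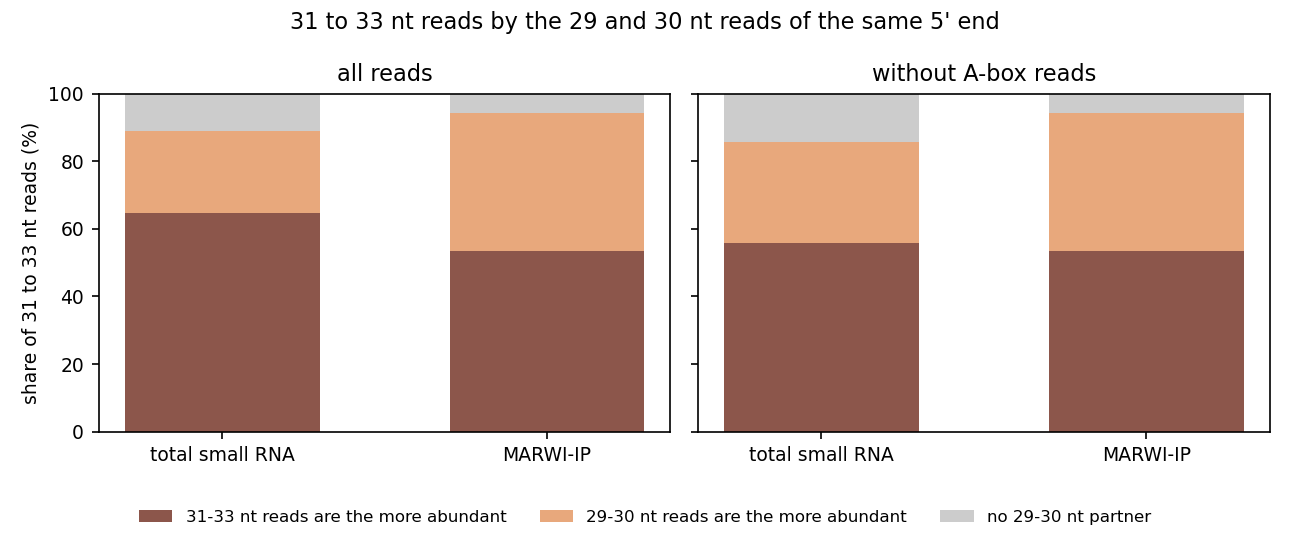
Stacked bars divide the 31 to 33 nt reads (%) of each file by whether 31 to 33 nt or 29 and 30 nt reads were more abundant at the same 5′ end (first 20 nt), or whether no 29 or 30 nt read shared it, with all reads (left) and without A-box reads (right). Ends with more 29 and 30 nt reads hold 24.4% of the reads in total and 40.7% in MARWI-IP with all reads.

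The leading 5′ ends showed 2 patterns. In the first, the length profile was nearly the same in both files. The end of U-first a had 77470 reads at 30 nt, 21682 at 31 nt and 28 at 32 nt in total, and 1072903, 266201 and 394 in MARWI-IP. Forms of 31 to 33 nt were 17.2% of its reads in total and 16.4% in MARWI-IP. The end of U-first c had 17.7% and 19.1%, and that of U-first e 16.5% and 21.0%.

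The C-first end and the end of U-first b likewise kept their profile, but with 31 to 33 nt as the main lengths. The C-first end had 2233, 5534, 7252 and 473 reads from 30 to 33 nt in total. In MARWI-IP it had 51958, 158079, 132015 and 9446. Its 31 to 33 nt forms were 75.2% of its reads in total and 74.0% in MARWI-IP, and those of U-first b 77.9% and 72.1%.

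In the second pattern, the long forms were a smaller part of the end in MARWI-IP. The tRNA-Val-CAC end had 2884 reads at 29 nt and 20110 at 32 nt in total, and 18555 at 29 nt and 666 at 32 nt in MARWI-IP. Its 31 to 33 nt forms were 88.1% of its reads in total and 12.1% in MARWI-IP. For tRNA-Lys-CTT the shares were 87.02% and 20.4%, and for tRNA-Gly-GCC 88.3% and 54.4%. The U-first tRNA-Glu-TTC had it too, with 6.15% of its 29 to 33 nt reads at 31 to 33 nt in total and 0.155% in MARWI-IP. By that measure the other listed RNAs went both ways. The share was lower in MARWI-IP for 28S rRNA (83.9% and 45.7%) and near equal for tRNA-Asp-GTC (86.4% and 85.6%). It was higher in MARWI-IP for Y-RNA-1 (79.2% and 92.2%) and Y-RNA-4 (91.1% and 99.1%). The tRNA-Gly-GCC end still had 11189 MARWI-IP reads at 31 nt, its commonest length in both files.

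**Figure D4:**
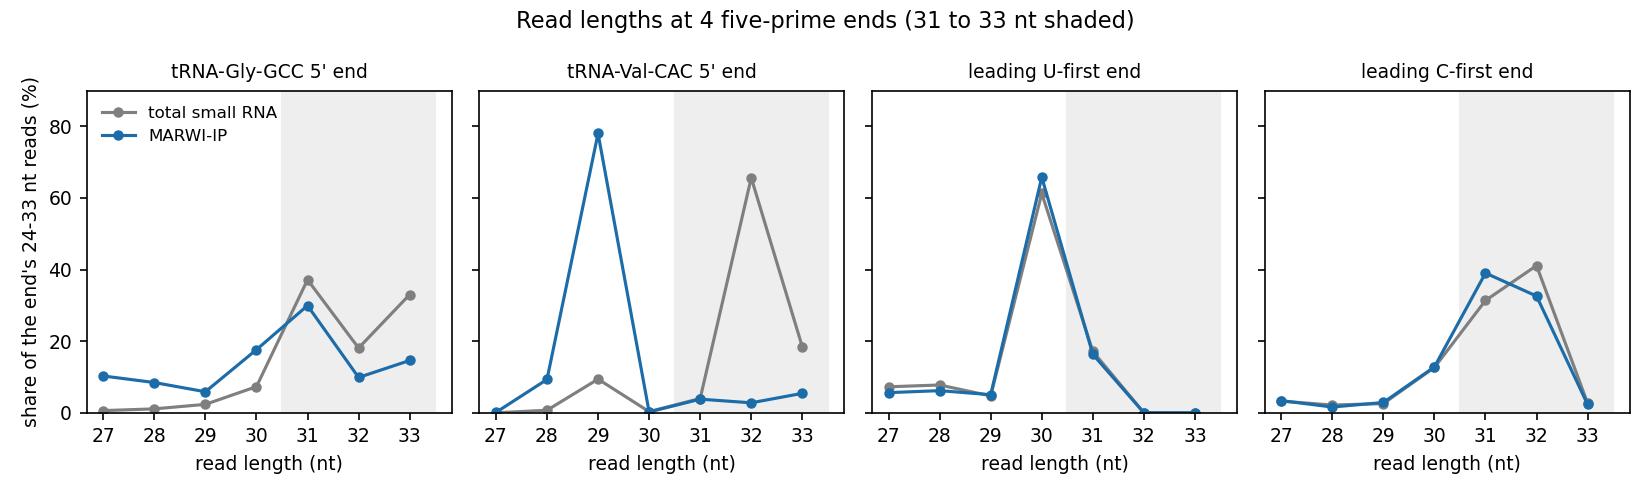
Lines give the share (%) of each 5′ end's 24 to 33 nt reads found at each length from 27 to 33 nt, for total small RNA (grey) and MARWI-IP (blue), with 31 to 33 nt shaded. The U-first and C-first ends overlap between files, whereas tRNA-Val-CAC peaks at 32 nt in total and at 29 nt in MARWI-IP.

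Over all 5′ ends with 100 or more reads in both files, 14302 in number, a form of 31 to 33 nt was usually minor. It was a median of 2.99% of an end's reads in total (quartiles 0.338% and 18.8%) and 2.23% in MARWI-IP (0.247% and 16.0%). MARWI-IP was lower at 7632 ends (53.4%). It was lower by 10 points or more at 1479 ends (10.3%) and higher by as much at 781 (5.46%). The long forms held over 50% of reads at 1643 ends in total and at 1394 in MARWI-IP, with 1138 ends in both sets, which is 69.3% of the first and 81.6% of the second.

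These ends were also used to separate length within an end from the mix of ends. Forms of 31 to 33 nt were 20.2% of the total reads at these ends and 11.03% of the MARWI-IP reads. With the length profile of each end taken from MARWI-IP and its abundance from total, the share was 15.5%. Without A-box ends the 3 values were 14.6%, 11.8% and 12.8%. At the 25 A-box ends alone they were 71.5%, 2.34% and 40.0%.

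**Figure D5:**
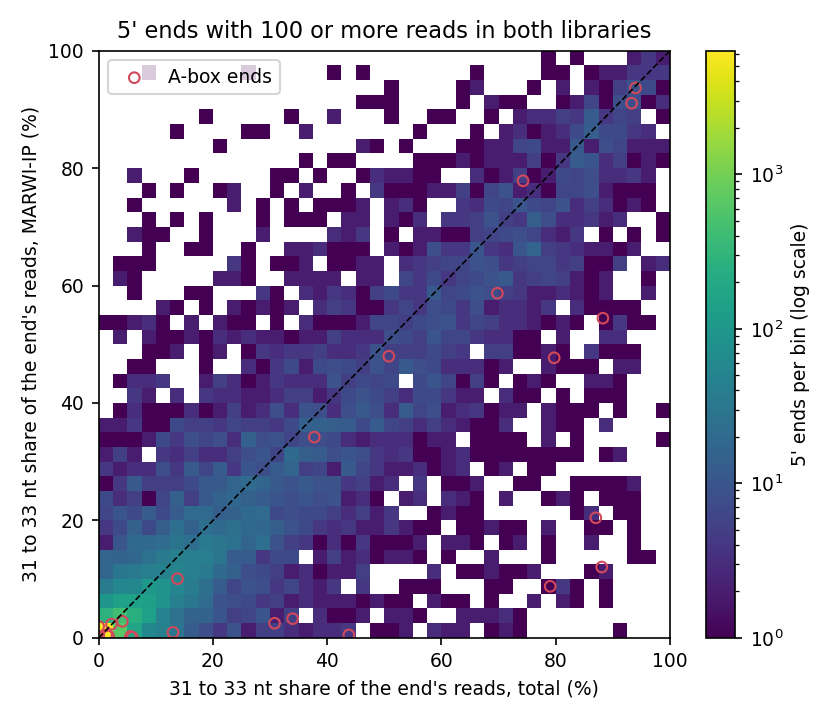
The map counts the 14302 ends with 100 or more reads in both files by the share of their reads that is 31 to 33 nt in total small RNA (x axis, %) and in MARWI-IP (y axis, %), with a log colour scale and 25 A-box ends circled. Most ends lie near the origin and along the dashed line of equal shares, and 10 A-box ends lie 10 points or more below it.

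The last base changed with length in both files. Without A-box reads, C was the last base of 41.2% of the reads in total and 38.1% in MARWI-IP at 31 nt and of 46.2% and 50.3% at 32 nt. At 29 nt it was last in 30.02% and 26.6%, and 30 nt lay between, at 34.2% and 30.6%. A as the last base fell from 22.0% of the reads in total and 21.1% in MARWI-IP at 29 nt to 10.6% and 9.75% at 32 nt. At 33 nt the files parted: C was last in 39.0% and 49.0%, and A in 17.9% and 10.6%. Counted once per distinct sequence, C as the last base also rose with length. It was last in 28.8% of total and 23.0% of MARWI-IP sequences at 29 nt and in 42.2% and 36.7% at 32 nt. Total was thus the higher file at 32 nt by distinct sequences, and MARWI-IP by reads. All 3 tRNA-Gly-GCC forms are outside these shares.

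The last base was almost always that of a single sequence. Without A-box reads, in groups of 31-nt reads that differ at the last base alone, with 100 or more reads, the less common forms were 0.135% of the reads in total and 0.0802% in MARWI-IP. At the 6th base from the end, the same count gave 0.113% and 0.0385%. The gap between the positions was wider at 32 and 33 nt than at 31 nt. At 32 nt it was 0.129% against 0.0131% in total and 0.0871% against 0.0140% in MARWI-IP, and at 33 nt 0.115% against 0.00273% and 0.234% against 0.00333%. Whether reads that did not match the genome were removed before deposit is not given in the sources used here.

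Inside the reads, A at position 5 was more frequent in MARWI-IP. Without A-box reads it was 35.2% of the reads in total and 41.6% in MARWI-IP of 31 to 33 nt, against 38.8% and 42.6% at 29 and 30 nt. A at position 10, known from piRNAs made by reciprocal cleavage, was at 34.6% and 32.9%, against 32.7% and 35.2% at 29 and 30 nt. At 33 nt the files parted, with A at position 10 in 38.3% of the reads in total and 27.02% in MARWI-IP, and in 45.5% and 28.8% of distinct sequences.

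By reads the files shared most of the window. Of total reads, 88.7% had a sequence present in MARWI-IP, and of MARWI-IP reads 87.4% had one present in total. At 29 and 30 nt the shares were 92.0% and 92.4%. The shared sequences were 44.5% of the distinct sequences of 31 to 33 nt in total and 14.6% of those in the deeper MARWI-IP file. Total reads were concentrated in fewer sequences, the 10 most abundant holding 21.6% of them, against 8.79% in MARWI-IP.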

How the data were processed

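The deposited small RNA tables list each distinct sequence once with its raw read count. Positions in the genome are not in these tables. Bowtie, TopHat and Cufflinks appear in the submitters' processing notes, whereas their roles, trimming and build were not given in the sources used here. The MARWI-IP table lists 24 to 33 nt alone, so its sum of 110209593 reads is not the depth of that library, and the total table lists 20 to 51 nt (12792323 reads at 24 to 33 nt). RNA-seq was not used. Shares were taken over the 31 to 33 nt reads of each file. Ratios have exact intervals from the binomial of the read counts. Anchors for 30 RNAs came from general knowledge of mammalian RNAs, and a second tRNA-Asp-GTC anchor was added after seeing its commonest sequence, which turned its ratio from 0.483 to 1.17. One tRNA 5′ family is not reported here by name, and counts in the A-box shares. Members, lists and rules were chosen with earlier results of these data known.

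Named sequences were the 8 most abundant of each file, the 3 highest and 3 lowest ratios with 1000 or more total reads, the 5 ends with most 31 to 33 nt reads in each file, and RNAs with 100 or more reads. The C-first effect at 32 nt was singled out after its values were seen. The thinned share sums, over MARWI-IP reads, the probability that at least 1 read of a 29 or 30 nt form is kept. The counting was tested on simulated reads. Alternatives were counting distinct sequences, leaving out single, leading or A-box reads, single lengths, other matching rules, folds and minimums. Counts were made in Python 3.11.15 with pandas 2.3.3 and numpy 2.4.6, intervals with scipy 1.17.1, and plots with matplotlib 3.10.9.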

Additional observations from a re-analysis of the deposited data

How the results depend on the processing

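No paired analysis was possible because each sample is 1 column. The difference in first U, 21.7 points (MARWI-IP minus total), turned to -2.65 with distinct sequences counted once. It was 23.6 without sequences read once, 8.26 without the 10 most abundant sequences of each file, 5.02 without A-box reads, and 13.0, 23.2 and 49.3 at 31, 32 and 33 nt. The A-box log2 ratio of -4.38 was -0.49 over distinct sequences, -4.46 without sequences read once, -2.43 without the leading sequences, -4.12, -4.05 and -2.86 at 31, 32 and 33 nt, -4.40 with G required at 15 and -5.02 over 24 to 33 nt reads. The extended-share difference of 5.20 points turned to -11.7 at 33 nt, to -2.85 when the shorter forms of an end needed 10 RPM, and to -0.0923 at matched depth. It was 1.42 over distinct sequences, 2.12 without sequences read once, 7.98 without the leading sequences, 6.195 and 4.17 at 31 and 32 nt, 5.14 and 5.32 with the first 18 or 24 nt, 5.44 with the whole shorter form, 8.47 without A-box reads and 3.12 without them at matched depth, the last added after seeing the data. At matched depth the difference was 1.27 at 31 nt, -2.49 at 32 nt and -21.1 at 33 nt. The 672 sequences 4-fold lower were 1346 with 50 or more total reads, 341 with 200 or more and 363 when chosen on the mean share. The 119 higher were 256, 48 and 495, and 528 at 2-fold, 13 at 8-fold and 25 with shares over 24 to 33 nt. More or fewer sequences enter at other minimums, and the cause of other shifts was not tested. tRNA-Asp-GTC turned from a log2 ratio of 0.22 to -1.05 without the anchor added after seeing the data, and to -0.42 over 24 to 33 nt reads. tRNA-Gln-CTG turned from 0.13 to -0.51 over 24 to 33 nt reads and to -2.40 with the first anchor alone. The count of listed RNAs lower in MARWI-IP, 18, was 17 of 18 with the first anchor alone, 19 of 21 without the added anchor and 20 of 21 over 24 to 33 nt reads. The division of reads by whether a 29 or 30 nt form was present or more abundant was not recomputed at matched depth.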
